A study of Mus musculus with 2 samples.

Results

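Histone lysine demethylases are the enzymes that take methyl groups off the tails of histones, and 10 of their genes were followed here: Kdm1a, Kdm1b, Kdm3a, Kdm3b, Kdm4a, Kdm4b, Kdm4c, Kdm5a, Kdm5b and Kdm6b. The members were chosen by name, from all probe sets of the array whose annotation gave only 1 of these symbols, older names included. This gave 23 probe sets of 45037 and 10 genes of 18193 named ones, and all 10 were among the 11805 measured genes. A gene counted as measured when a probe set lay above a floor on at least 1 array. The floor was a log2 value of 6.02, a signal of 64.7, the 50th percentile of all values.

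The study compared E14 cells, an established mouse embryonic stem cell line, carrying a lentiviral short hairpin RNA (shRNA) against Mll2 with E14 cells that received a control shRNA. According to the labels, cells were infected for 24 h and then kept in puromycin for 5 days, and the same protocol text covers both groups. Messenger RNA was read on 1 Affymetrix array per group. With a single array on each side nothing could be tested, so every difference below is a description of these 2 arrays and carries no p-value. The labels describe 1 cell line and 1 control hairpin, and the series title calls the control cells wild type although they carry that hairpin.

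Demethylases work by 2 chemistries. Kdm1a (LSD1) and Kdm1b (LSD2) are FAD-dependent amine oxidases that remove single and double methyl groups from lysine 4 of histone H3 (H3K4), the residue that the Mll2 family methylates. The others carry a JmjC domain, which needs iron and 2-oxoglutarate and can also remove triple methylation. Kdm5 enzymes act on H3K4, Kdm3 enzymes on H3K9, Kdm4 enzymes on H3K9 and H3K36, and Kdm6 enzymes on H3K27. In embryonic stem cells Kdm1a is known for silencing enhancers during differentiation, and Kdm3a, Kdm4b and Kdm4c for a role in keeping the pluripotent state.

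Both Kmt2d and Kmt2b have gone by the name Mll2, and no label settles which was meant. Kmt2d read 335 with Mll2 shRNA and 736 with control shRNA, 2.20-fold lower, and Kmt2b read 852 and 901. The identity of the cells was checked on 10 embryonic stem cell markers, all measured, whose signals as deposited, here and for the next 3 lists not raised to the floor, ran from 719 to 25464 with Mll2 shRNA and from 954 to 29661 with control shRNA. In log2 ratio, 5 stem cell markers were higher and 5 lower with Mll2 shRNA, from -0.44 to 0.59 (median -0.07). Of 10 fibroblast markers 5 were measured, with summed signals of 710 and 708. Within that sum Col1a2 was at a log2 ratio of 0.70 and Col1a1, above the floor on 1 array only, was at -0.58, a bound in size. Thy1, Pdgfra, Postn, Lum and Dcn were below the floor on both arrays. Of 10 primitive endoderm markers 7 were measured, with sums of 3440 and 2794, where Foxa2 read 601 and 128. By log2 ratio 6 of the 7 were higher with Mll2 shRNA and 1 lower, Dab2, which read 221 and 331. Gata4, Pdgfra and Afp were below the floor on both arrays. Of 9 trophoblast markers 8 were measured, with sums of 22105 and 30255, most of it the keratins Krt8 and Krt18. By log2 ratio 4 of the 8 were higher and 4 lower with Mll2 shRNA. Elf5 was below the floor on both arrays. The share of these cells in the differences below was not tested, and in bulk RNA fewer cells of a type and less RNA per cell cannot be told apart.

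Across the demethylases the 2 arrays differed little. None of the 10 genes differed by 2-fold, against 2.45% of all measured genes. At 1.5-fold, 1 was higher with Mll2 shRNA, against 7.40% of measured genes, and none was lower, against 4.68%. Counts of 0 and 1 among 10 genes are near these background shares. Each gene was represented by its probe set of highest mean value. On this basis 6 genes were higher and 4 lower with Mll2 shRNA, beside 53.5% of all measured genes higher. This split moved with the processing, to 5 and 5 after loess and to 8 and 2 after scaling on added control sequences (spike-in scaling). That scaling raised the median of all genes from 0.03 to 0.14. Averaging a gene's probe sets also gave 8 and 2, with a median of 0.12 against 0.03 over all genes. The median log2 ratio of Mll2 shRNA over control shRNA was 0.03, the same as the 0.03 over all measured genes. In 6 of the 10 the log2 ratio lay within 0.2 of zero. Signals of different probe sets depend on their probes, so levels were not compared between genes.

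**Figure D1:**
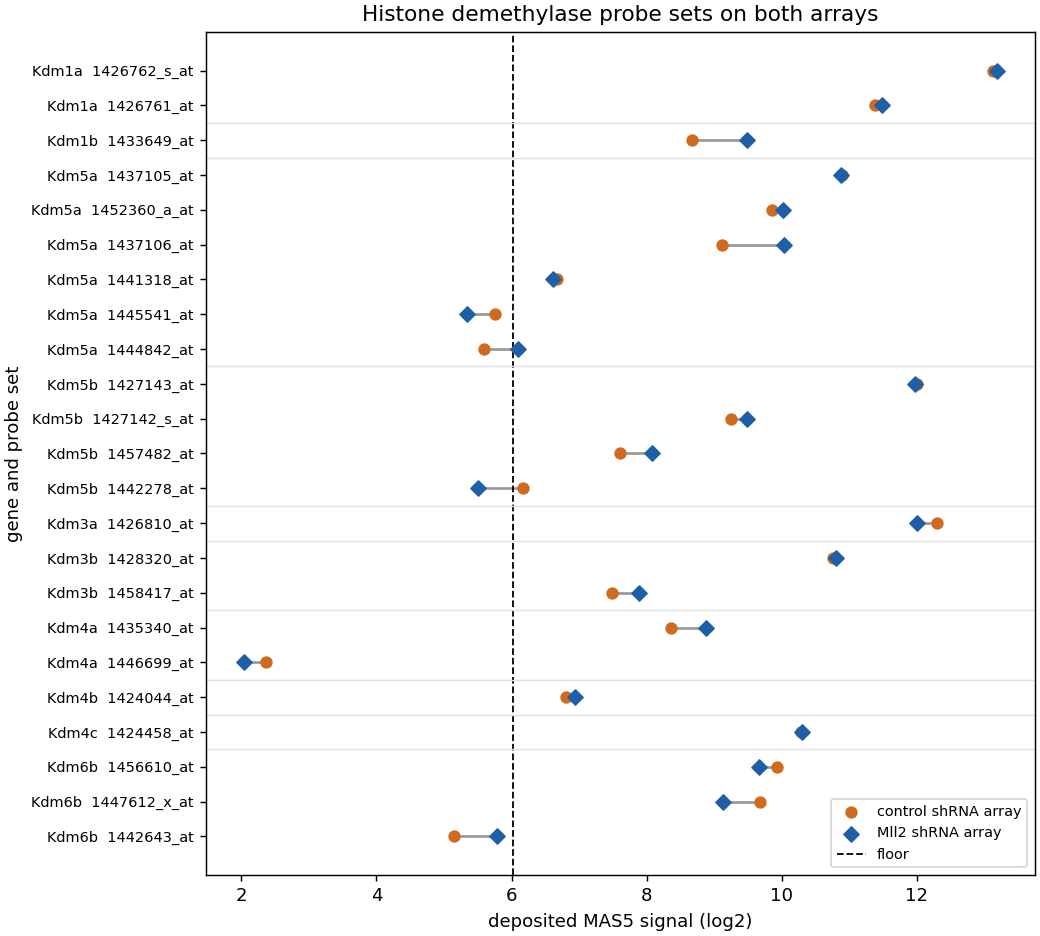
Deposited log2 signal (x axis) of all 23 probe sets of the 10 demethylase genes (y axis) on the Mll2 shRNA array (diamonds) and the control array (circles), with the floor of 6.02 as a dashed line. Kdm1b and 1 probe set of Kdm5a show the widest gaps among probe sets with both values above the floor, and 3 probe sets lie below the floor on both.

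The spread at a gene's level was used as a yardstick. It is the median absolute deviation, scaled to match a standard deviation, of the log2 ratios of the 500 measured genes nearest in mean level, and it holds real differences as well as noise. Ratios of 3 of the 10 genes, Kdm1b, Kdm4a and Kdm3a, were larger in size than this spread. Over all genes with both values above the floor, 32.1% exceeded their spread, close to the 3 of 10 in the family.

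The H3K4 demethylases came first, because they remove the mark that Mll2 lays down. Kdm1b, which demethylates H3K4 in gene bodies and is needed in oocytes to set maternal imprints, had a signal of 718 with Mll2 shRNA and 407 with control shRNA. Among the probe sets used for each gene this was the largest difference in the family, 1.76-fold higher with Mll2 shRNA, with a log2 ratio of 0.82 against a spread of 0.33. Only 1 probe set named Kdm1b, so no second reading of the gene was available. Its paralogue Kdm1a, the catalytic subunit of the CoREST complexes, had 9331 and 8971 in the probe set used, a log2 ratio of 0.06. The other Kdm1a probe set read 2881 and 2659, a log2 ratio of 0.12. Both Kdm1a values were well inside their spreads of 0.19 and 0.25.

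Promoter sequence of the 2 FAD-dependent enzymes is shown because their ratios differ while they remove the same methyl groups, and because H3K4 trimethylation lies mainly at promoters rich in the dinucleotide CG. The sequences are the 250 bases upstream of the RefSeq start in GRCm38.p6, 5′ to 3′ on the strand of the gene, with every CG in capitals. Kdm1a lies on the minus strand at chr4:136602724-136602973 and Kdm1b on the plus strand at chr13:47043249-47043498.
Kdm1a: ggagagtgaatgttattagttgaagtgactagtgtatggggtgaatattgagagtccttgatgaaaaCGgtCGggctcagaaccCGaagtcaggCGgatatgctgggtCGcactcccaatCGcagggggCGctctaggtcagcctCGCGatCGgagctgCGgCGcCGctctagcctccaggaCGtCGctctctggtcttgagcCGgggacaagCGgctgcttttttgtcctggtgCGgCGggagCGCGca
Kdm1b: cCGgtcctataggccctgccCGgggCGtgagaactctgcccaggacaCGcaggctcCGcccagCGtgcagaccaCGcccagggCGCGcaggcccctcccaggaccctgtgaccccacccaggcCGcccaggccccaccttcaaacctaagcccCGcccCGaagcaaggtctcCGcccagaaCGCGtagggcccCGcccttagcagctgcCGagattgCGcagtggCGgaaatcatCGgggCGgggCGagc
CG occurred 21 times in the Kdm1a window and 22 times in that of Kdm1b, against a median of 6 over the 32851 windows of all genes. The motif CG reads the same on both strands, and 92.1% of all windows held at least 1. GC content was 59.2% for Kdm1a and 71.6% for Kdm1b, with a median of 52.4% over all windows. The 2 genes thus had nearly the same number of CG. Windows were used for 6 of the 10 genes, after any member window on 1 of the chromosomes was left out. Of the 4 with a single start, Kdm4a had 12 and Kdm5b 13, and 33.5% of all windows held 12 or more. Kdm3a and Kdm4c have several annotated starts, with 20, 31 and 0 CG in the windows of Kdm3a and 19 and 0 in those of Kdm4c.

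Kdm5a and Kdm5b remove methyl groups from trimethylated and dimethylated H3K4, Kdm5a being known as a partner of the retinoblastoma protein and Kdm5b as a repressor of developmental genes in stem cells. Kdm5a read 1877 with Mll2 shRNA and 1899 with control shRNA in the probe set used, a log2 ratio of -0.02. Its other probe sets did not all say the same. The probe set 1437106_at, annotated to the same source sequence as the one used, read 1045 and 556, a log2 ratio of 0.91 against a spread of 0.29. Of the remaining ones, 1452360_a_at read 1035 and 926 (log2 ratio 0.16) and 1441318_at read 97.8 and 103 (log2 ratio -0.07). Over these 4 probe sets the mean log2 ratio was 0.25 ± 0.45 (SD), with 2 higher and 2 lower, so the readings gave no common direction. One more was above the floor with Mll2 shRNA only, at 68.3, and the last was below it on both arrays.

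Kdm5b read 4012 with Mll2 shRNA and 4121 with control shRNA, a log2 ratio of -0.04 against a spread of 0.22. The second probe set read 715 and 609 (log2 ratio 0.23) and the third 270.5 and 196 (log2 ratio 0.47). The dimmer probe sets were thus higher with Mll2 shRNA while the brightest was level, and the mean over the 3 was 0.22 ± 0.25 (SD). One more was above the floor with control shRNA only, at 72.3. Of the 4 H3K4 demethylases, only Kdm1b had a difference beyond its spread in the probe set used for the gene.

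Kdm3a and Kdm3b remove single and double methyl groups from H3K9. Kdm3a, a hypoxia-responsive gene also needed in male germ cells, had a signal of 4129 with Mll2 shRNA and 5066 with control shRNA. Among the probe sets used for each gene it had the lowest ratio of the family, 1.23-fold lower with Mll2 shRNA (log2 ratio -0.30, spread 0.21), read by a single probe set. Kdm6b was lower after quantile normalization (-0.31 against -0.26 for Kdm3a), after loess (-0.31 against -0.27) and with the mean over probe sets (-0.40 against -0.30). Kdm3b read 1787 and 1737, a log2 ratio of 0.04, and 236 and 180 in its second probe set, a log2 ratio of 0.39 against a spread of 0.43. Both Kdm3b probe sets were thus higher with Mll2 shRNA, neither beyond its spread, with a mean of 0.22 ± 0.25 (SD).

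**Figure D2:**
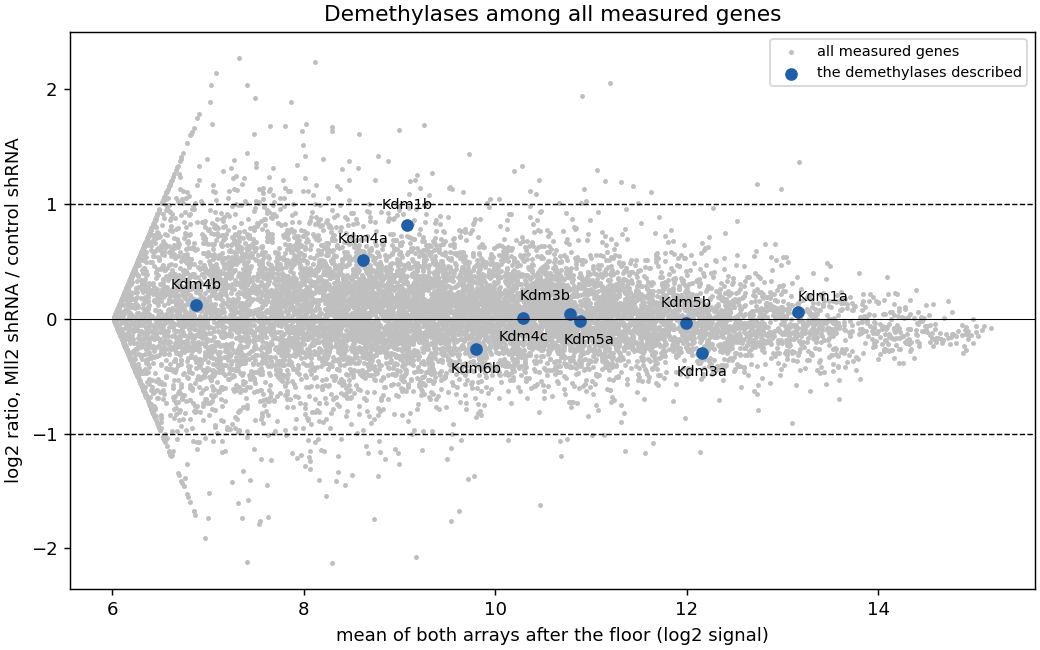
Log2 ratio of Mll2 shRNA over control shRNA (y axis) against the mean log2 signal of both arrays (x axis) for all 11805 measured genes (grey) and the 10 demethylases (blue). Dashed lines mark 2-fold, which none of the 10 crosses; Kdm1b at 0.82 and Kdm4a at 0.52 lie highest and Kdm3a at -0.30 lowest.

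The Kdm4 enzymes act on trimethylated H3K9 and H3K36. Kdm4a had a signal of 472 with Mll2 shRNA and 330.0 with control shRNA. It was 1.43-fold higher, the second largest difference among the probe sets used for each gene, with a log2 ratio of 0.52 against a spread of 0.34. Its other probe set was far below the floor, at signals of 4.09 and 5.13, and gave no ratio. Kdm4b, a hypoxia-responsive gene, read 122 and 112, a log2 ratio of 0.12 against a spread of 0.46. This was the dimmest probe set used, less than 1 log2 unit above the floor on either array. Kdm4c, known for acting with Kdm4b at promoters and enhancers of pluripotency genes, read 1256 and 1247, a log2 ratio of 0.01. The 3 paralogues thus gave no shared direction beyond their spreads.

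Kdm6b (JMJD3) removes methyl groups from H3K27, the Polycomb mark, and is induced in many differentiating and inflammatory settings. Its probe set used for the gene read 812 with Mll2 shRNA and 975 with control shRNA, a log2 ratio of -0.26 against a spread of 0.27. The second probe set read 563 and 819, a log2 ratio of -0.54 against a spread of 0.32. Kdm6b was the only one of the 5 genes with several probe sets fully above the floor in which all of these were lower with Mll2 shRNA, with a mean of -0.40 ± 0.19 (SD over 2). Probe sets of a gene share the arrays and may share sequence, so their agreement does not stand for replicate cultures. Its remaining probe set read 55.0 and 35.5, both below the floor.

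Over all 20 measured probe sets of the family, 2 were at least 1.5-fold higher with Mll2 shRNA, that of Kdm1b and 1437106_at of Kdm5a, against 7.18% of all measured probe sets. None was at least 1.5-fold lower, against 5.24%. Of the 18 with both values above the floor, 12 were higher and 6 lower. Over all measured genes, at 1 probe set each, 53.5% were higher. Kdm5a and Kdm5b were the 2 genes whose probe sets disagreed in sign.

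**Figure D3:**
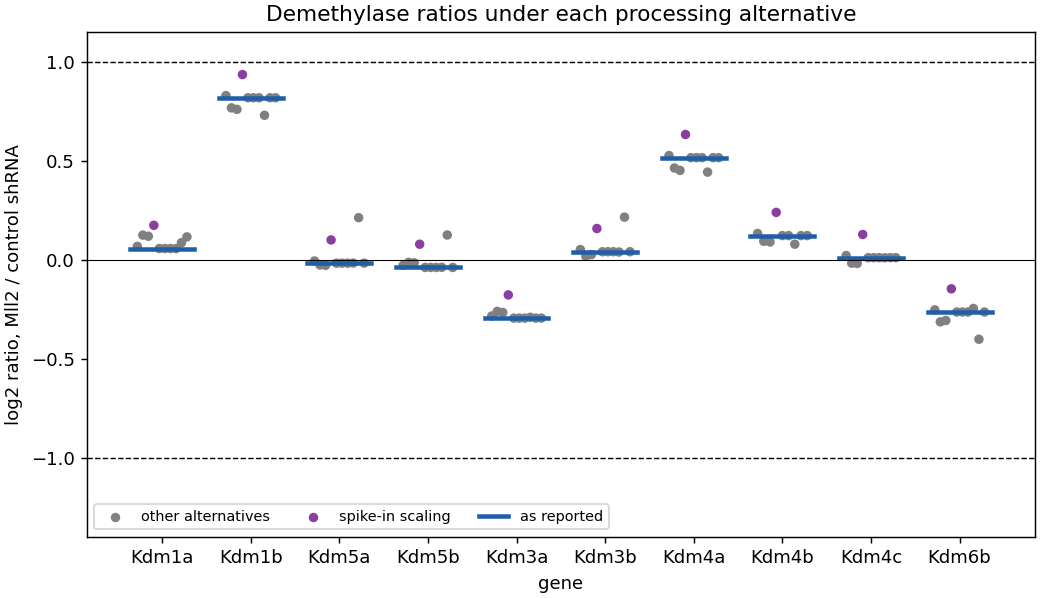
Log2 ratio (y axis) of each demethylase gene (x axis) as reported (blue bars), under spike-in scaling (purple) and under each other processing alternative (grey), with 2-fold as dashed lines. Kdm1b lay between 0.73 and 0.94 and Kdm3a between -0.30 and -0.18, while Kdm5a, Kdm5b and Kdm4c crossed zero.

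Processing shifted these values, and some of them changed sign. Kdm1b ran from 0.73 to 0.94 and Kdm4a from 0.44 to 0.63 over the reported value and 10 alternatives. Kdm3a ran from -0.30 to -0.18 and Kdm6b from -0.40 to -0.15. Kdm1b, Kdm4a and Kdm3a kept the reported value with the other floors or none, and with the mean over probe sets. They also kept it without probe sets whose suffixes mark shared transcripts. Each of the genes had 1 probe set above the floor, so these settings could not move its ratio. Kdm1a, Kdm3b and Kdm4b were above zero in every setting that measured them, whereas Kdm4c, Kdm5a and Kdm5b changed sign between settings.

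The other histone demethylases and JmjC relatives were read in the same way. Of 16 listed, 14 were measured, 8 higher and 6 lower (7 and 7 after loess, 10 and 4 with spike-in scaling), with a median log2 ratio of 0.04 and none at 2-fold. Kdm8 (-0.68) and Jmjd6 (-0.66) were at least 1.5-fold lower with Mll2 shRNA, 2 of 14 genes beside 4.68% of all measured genes, and none was 1.5-fold higher. Jmjd6, however, had 0.24 in its second probe set. Kdm6a (UTX), the H3K27 demethylase found in the same complexes as Kmt2c and Kmt2d, read 3340 and 2878, a log2 ratio of 0.21, and its 3 probe sets ran from 0.18 to 0.28. That sign is opposite to the one of its relative Kdm6b. Uty, the Y-linked relative of Kdm6a, was at 0.36. Kdm5c, which acts on H3K4, was at -0.0017, and its 7 measured probe sets ran from -0.49 to 0.36. The H3K36 demethylases Kdm2a and Kdm2b were both at 0.04, with second probe sets at -0.03 and -0.32, and the remaining Kdm2a probe set was at -0.74. Jmjd1c was at 0.08, Kdm7a at 0.28, Phf8 at -0.04, Phf2 at -0.23, Riox1 at 0.18, Riox2 at -0.28 and Hr at 0.25. The 4 measured Riox2 probe sets ran from -0.62 to 0.25. Kdm4d and Kdm5d were below the floor on both arrays. Together, 24 measured demethylases and relatives had 14 genes higher and 10 lower, and a median of 0.04.

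Proteins that hold or guide Kdm1a and Kdm1b were then read. Of 23 listed partners, CoREST and NuRD subunits and the Kdm1b partner Glyr1 included, 20 were measured and 13 were higher, with a median of 0.08, or -0.076 when probe sets with suffixes that mark shared transcripts were left out. Rcor3, a CoREST relative that binds Kdm1a, read 332 with Mll2 shRNA and 185 with control shRNA, a log2 ratio of 0.84 against a spread of 0.38. Its other probe sets were also higher, at 1.24 in the second and 0.20 or more in the third, which was above the floor on 1 array only. Zmym3 was at 0.47, Gse1 at -0.43, and Chd4, the NuRD remodeller, at -0.61 with -0.22 in its second probe set.

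The enzymes that lay down the marks were set beside those that remove them. Of 11 measured H3K4 methyltransferases, 9 were lower and 2 higher (median -0.18), where 53.5% of all measured genes were higher. With spike-in scaling 6 were lower and 5 higher. The 9 include both genes that have gone by the name Mll2, Kmt2d and Kmt2b. Kmt2d was lowest at -1.14, with Kmt2c at -0.36, Setd1a at 0.04 and Kmt2e highest at 0.77. The 4 measured Kmt2c probe sets ran from -0.37 to 0.08. Of 8 measured H3K9 methyltransferases, 5 were lower (median -0.08, or 0.037 with spike-in scaling). Ehmt2 (G9a), which writes the dimethyl mark that Kdm3 enzymes remove, read 726 with Mll2 shRNA and 1219 with control shRNA, a log2 ratio of -0.75. Its partner Ehmt1 was at -0.42, while Prdm2 was at 0.26 and Prdm16 at least 0.31, above the floor with Mll2 shRNA only. In the core of Polycomb repressive complex 2, Eed was at -0.08, Ezh2 at -0.01, Suz12 at 0.07 and Ezh1 at 0.50 (median 0.03, or -0.01 without the suffixed probe sets). Ezh1 was also read by a dimmer probe set, measured on the control array alone, at -0.33, a bound in size. Of 6 measured H3K36 methyltransferases 4 were lower (median -0.06, or 0.0575 with spike-in scaling), with Smyd5 at -0.27, Setd2 at -0.13, Nsd1 at 0.07 and Nsd3 at 0.83. The other Nsd1 probe sets were at 0.73 and -0.59, and the 5 measured Nsd3 probe sets ran from -0.26 to 0.83.

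**Figure D4:**
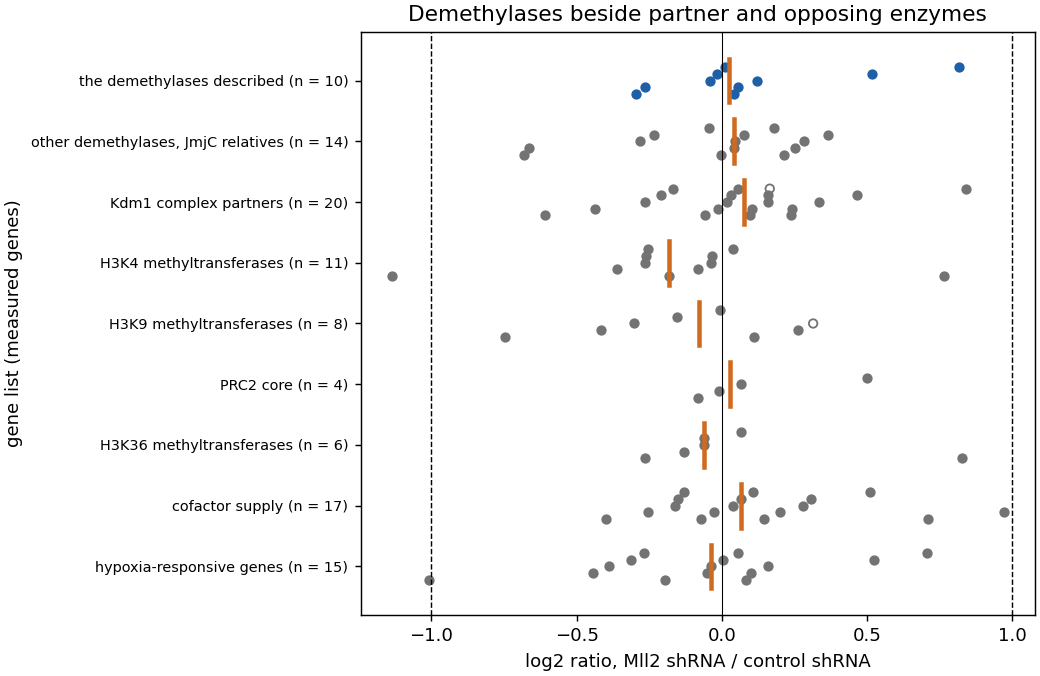
Log2 ratio of Mll2 shRNA over control shRNA (x axis) for each measured gene of the demethylase family and of related lists (y axis), with the list median as an orange bar and 2-fold as dashed lines. Open circles are lower bounds in size, and the median of the demethylases, 0.03, lies close to zero.

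Genes that supply the cofactors of demethylases included some larger differences. Of 17 measured, 10 were higher and 7 lower (median 0.07). Idh2, which makes 2-oxoglutarate in mitochondria, read 1366 with Mll2 shRNA and 696 with control shRNA, a log2 ratio of 0.97 with 1.11 in its second probe set. Psat1, an enzyme of serine synthesis that yields 2-oxoglutarate, was at 0.71 with 0.42 in its second. Lowest were Got1 at -0.40 and Tfrc, the transferrin receptor for iron uptake, at -0.25.

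Kdm3a, Kdm4b and Kdm4c are known to respond to low oxygen, so 16 hypoxia-responsive genes were listed beside them. Of 15 measured, 7 were higher and 8 lower (median -0.04, or 0.081 with spike-in scaling), with Vegfa at 0.71, Adm at 0.52, Egln1 at -0.44 and Epas1 at -1.01. The second Egln1 probe set was at 0.05. Of 8 measured pluripotency genes with a known link to these enzymes, 5 were higher and 3 lower (median 0.14). Pou5f1 (Oct4), which is known to act upstream of Kdm3a and Kdm4c, read 6975 with Mll2 shRNA and 9467 with control shRNA, a log2 ratio of -0.44. Kdm3a was lower in its only probe set, whereas Kdm4c was level, and any link of either to the Pou5f1 value was not tested. Among the other genes of this list, Klf4 was at 0.59, Esrrb at 0.53 with -0.22 in its second probe set, Nanog at 0.47, and Zfp57 at -0.44. Whether any of these differences depends on the demethylases was not tested.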

How the data were processed

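The deposited table holds 1 log2 value per probe set and array, which the authors made with MAS5 per the submitters' processing notes. MAS5 combines perfect-match and mismatch probes into a signal. The sources used here name neither a version nor a genome build. Raised to linear signals, both arrays had a trimmed mean of 500.0, so the scaling to a common mean was checked on the values. Because mismatch probes are subtracted, dim values are noisy. Depth has no meaning for arrays, and precision is limited by their number.

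After 64 control probe sets were set aside, 34945 of 45037 probe sets had 1 gene, 932 had several and 9160 were unnamed. Symbols were updated through Entrez numbers to RefSeq (GRCm38.p6). Lower values were raised to the floor. A gene above it on 1 array only has a ratio that is a lower bound. The brightest probe set stood for a gene. All demethylases, Kmt2d and Kmt2b were named, all other measured demethylases, and up to the 2 highest and 2 lowest of each other list, and the stem cell markers Pou5f1 and Nanog. Genes named outside this rule (Krt8, Krt18, Foxa2, Dab2, Col1a1, Col1a2 and the unmeasured markers) were picked after their values were seen. Members and lists were chosen with earlier results of these data known. Alternatives were other scalings (median, quantile, loess, spike-in), other floors, a pseudocount, the mean over a gene's probe sets, and leaving out suffixed probe sets. Steps were tested on simulated data. Software was Python 3.11.15, numpy 2.4.6 and pandas 2.3.3, and for loess limma 3.58.1 in R 4.3.3.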

Additional observations from a re-analysis of the deposited data

Results flagged for a closer look

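Probe set 1440346_at was left out of the comparisons because its annotation names Kdm6b together with another gene. It read 267 with Mll2 shRNA and 175 with control shRNA, a log2 ratio of 0.61 against a spread of 0.42. It is listed here as a signal that no comparison used and that was above its level in the control array. The 2 probe sets that name Kdm6b alone and lay above the floor had negative ratios. Which gene this signal came from was not tested.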

How the results depend on the processing

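The count of demethylases at 2-fold was 0 as reported and in all 10 alternatives, so a 3-fold threshold could only give 0. Scaling on the 18 spike-in probe sets takes out their mean difference of -0.12 and so raises every ratio above the floor. This scaling moved the median of all genes from 0.03 to 0.14. Under it, 2 demethylases were at least 1.5-fold higher in place of 1, since Kdm4a reached 0.63. The share of all measured genes at least 1.5-fold higher rose from 7.40% to 11.7%. The demethylase median was 0.14, equal to that of all genes. The other medians became 0.16 (other demethylases), 0.195 (Kdm1 partners), -0.064 (H3K4), 0.037 (H3K9), 0.15 (Polycomb repressive complex 2) and 0.0575 (H3K36 methyltransferases), 0.18 (cofactors), 0.081 (hypoxia) and 0.26 (pluripotency). It gave 258 genes 2-fold higher and 82 lower, 75.9% higher, against 173 and 116 (59.9%) as reported. With the floor at the 70th percentile the H3K9 median was -0.23, and Kdm4b was no longer measured. Of all genes 289 passed 2-fold as reported, 88 with the floor at the 70th percentile, 976 with it at the 30th, 3497 with no floor and 157 with a pseudocount. Without probe sets with suffixes the Kdm1 partner median was -0.076. The causes were not tested. No paired analysis was possible because each group has 1 array, which also prevents leaving out a replicate.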
